A study of Mus musculus with 18 samples.

Results

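The heat shock factors and regulators described here are 7 genes taken by symbol from the count table: the transcription factors Hsf1, Hsf2 and Hsf4, the factor-binding protein Hsbp1, and the protein modifiers Hdac6, Ep300 and Sirt1. The table listed 24421 genes, of which 13507 passed the filter on low counts, and all 7 were among them. RNA came from 4T1, a mouse mammary carcinoma line labelled with the strain BALB/cfC3H and the genotype wild type, and from 4T1R1 and 4T1R2, 2 populations of 4T1 cells that had survived repeated exposure to 17-DMAG and were not described as clones. 17-DMAG is a derivative of geldanamycin that inhibits the chaperone HSP90. Each of the 3 populations was sampled untreated and after 1.5 µM 17-DMAG, which gives 6 groups of 3 libraries that the submitters called biological replicates. The sample records give the exposure before RNA extraction as 48 h and the series text gives it as 2 h, and the dose and length of the selecting exposures differ between these texts as well, so no time is attached to the values. The question addressed is how the transcript levels of the factors and their regulators stand beside the smaller induction of heat shock genes in 4T1R1 and 4T1R2.

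As background, HSF1 is the main activator of the heat shock response. In unstressed cells it is held inactive by chaperones, HSP90 among them, and when these are occupied or inhibited it trimerizes, enters the nucleus and binds heat shock elements, which are alternating repeats of the letters GAA and TTC. HSF2 can form mixed trimers with HSF1, and HSF4 is best known from the lens. HSBP1 binds the trimerization domain of HSF1 and dampens its activity. EP300 acetylates HSF1, SIRT1 removes acetyl groups and prolongs its DNA binding, and HDAC6 is a cytoplasmic deacetylase found with HSP90 and HSF1 that releases HSF1 on sensing ubiquitinated protein. Most of this control acts on protein, and none of it is measured by a transcript count.

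The libraries held 23354461 to 55094630 counts. In 4T1 given 17-DMAG, replicates 1 and 2 were more alike than any other pair within a group (chi-square per gene 1.10, against 2.04 to 2.22 in the other 17 pairs). They were counted as 1 sample, so that group has n = 2 and the others n = 3. All 5 epithelial markers were present in every library, with Krt8 at 14913 to 23850 normalized counts. Of 9 markers of leukocytes, endothelium and fibroblasts, Adgre1, Cd3e, Cdh5 and Dcn were at 0 in 16, 15, 9 and 14 of 17 libraries, while Pdgfra and Cd68 were detected at 375 to 1027 and 118 to 207 normalized counts and Ptprc, Pecam1 and Col1a1 at 1.90 to 18.8, in all 17. The sum over these 9 genes was 837 to 943 in untreated 4T1, 554 to 601 in treated 4T1, 1056 to 1106 and 894 to 969 in untreated and treated 4T1R1, and 1123 to 1230.3 and 970.1 to 1109.6 in 4T1R2. Its part in the results was not tested. The ribosomal RNA precursor Rn45s took 10.7% to 11.4% of counts in untreated and 13.2% to 14.1% in treated 4T1, 13.4% to 15.6% and 9.54% to 12.2% in 4T1R1, and 10.9% to 11.8% and 10.6% to 13.1% in 4T1R2. Library names of 4T1R1 belong to a different series than those of 4T1 and 4T1R2, so population and library series cannot be told apart where 4T1R1 is set against either of the others, whereas 17-DMAG effects within a population, and 4T1R2 against 4T1, lie within 1 series. In these bulk samples fewer cells of a type and less RNA per cell cannot be told apart.

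Promoters of factors and regulators were set beside those of genes that HSF1 is known to activate, because a heat shock element is what HSF1 binds. The RefSeq promoter table (GRCm38.p6, 250 bases before to 50 bases after a transcript start) matched 5 of the 7 genes, namely Hsf2, Hsbp1, Hdac6, Ep300 and Sirt1, and 16 of 20 HSF1 target genes. The two-unit element was searched as GAANNTTC or TTCNNGAA, each of which reads the same on both strands, and the three-unit element as GAANNTTCNNGAA or TTCNNGAANNTTC, which contains the two-unit forms. None of the 5 matched factor and regulator promoters held a two-unit element. Counting a gene once if any of its windows held the element, 11 of 16 targets held the two-unit and 4 of 16 the three-unit element, against 17.0% and 0.662% of 27025 genes in the table. By windows these were 12 and 5 of 21, against 15.1% and 0.603% of 32851. A window without these letters says nothing about binding elsewhere. The windows below run from 150 bases before to 30 bases after the start, 5′ to 3′ on the gene's own strand, with two-unit elements in capitals. Hsf2 is shown because it rose after 17-DMAG in 4T1R1, Sirt1 because it fell in 4T1, and Chordc1, Hspe1 and Hspa1b as targets with elements within the bases shown.
Hsf2 (chr10:57486235-57486414, plus strand): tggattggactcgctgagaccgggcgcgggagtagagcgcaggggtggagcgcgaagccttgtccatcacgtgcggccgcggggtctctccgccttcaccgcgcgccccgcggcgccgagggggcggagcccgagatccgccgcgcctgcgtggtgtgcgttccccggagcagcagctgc
Sirt1 (chr10:63339006-63339185, minus strand): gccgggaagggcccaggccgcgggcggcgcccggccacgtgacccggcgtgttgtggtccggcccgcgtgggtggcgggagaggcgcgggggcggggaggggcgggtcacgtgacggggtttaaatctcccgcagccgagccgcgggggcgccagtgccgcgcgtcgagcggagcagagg
Chordc1 (chr9:18292117-18292296, plus strand): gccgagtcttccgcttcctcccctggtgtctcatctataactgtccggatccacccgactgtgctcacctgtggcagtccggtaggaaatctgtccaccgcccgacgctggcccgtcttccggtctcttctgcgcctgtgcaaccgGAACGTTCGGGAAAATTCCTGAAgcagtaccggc
Hspe1 (chr1:55087998-55088177, plus strand): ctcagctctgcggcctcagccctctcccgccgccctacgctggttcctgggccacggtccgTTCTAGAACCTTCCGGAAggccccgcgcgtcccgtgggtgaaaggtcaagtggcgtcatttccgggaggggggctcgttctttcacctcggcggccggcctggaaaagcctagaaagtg
Hspa1b (chr17:34959209-34959388, minus strand): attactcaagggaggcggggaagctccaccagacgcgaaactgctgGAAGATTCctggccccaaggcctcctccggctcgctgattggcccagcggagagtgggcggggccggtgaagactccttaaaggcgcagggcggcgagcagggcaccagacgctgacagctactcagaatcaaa

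The capitals in Chordc1, which encodes an HSP90 co-chaperone, lie across the transcript start. In Hspe1, which encodes the mitochondrial chaperonin HSP10, they form 1 run of overlapping elements that the adjoining Hspd1 start on the opposite strand shares. Hspa1b encodes an inducible HSP70, and its near-identical neighbour Hspa1a may take or give some of its counts. Chordc1 rose after 17-DMAG by +1.73, +1.45 and +0.92 on the log2 scale in 4T1, 4T1R1 and 4T1R2, Hspe1 by +1.27, +0.82 and +0.57, and Hspa1b by +5.11, +3.23 and +2.29. The matched targets whose windows held no element were Hspa4l, Dnajb1, Ahsa1, Stip1 and Serpinh1, and Dnajb1 also rose, as given below. Whether the elements bear on the size of the rises was not tested. The RefSeq starts of Ep300 and Sirt1 lie inside the GENCODE gene spans given below, so other starts of these genes were not searched.

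**Figure D1:**
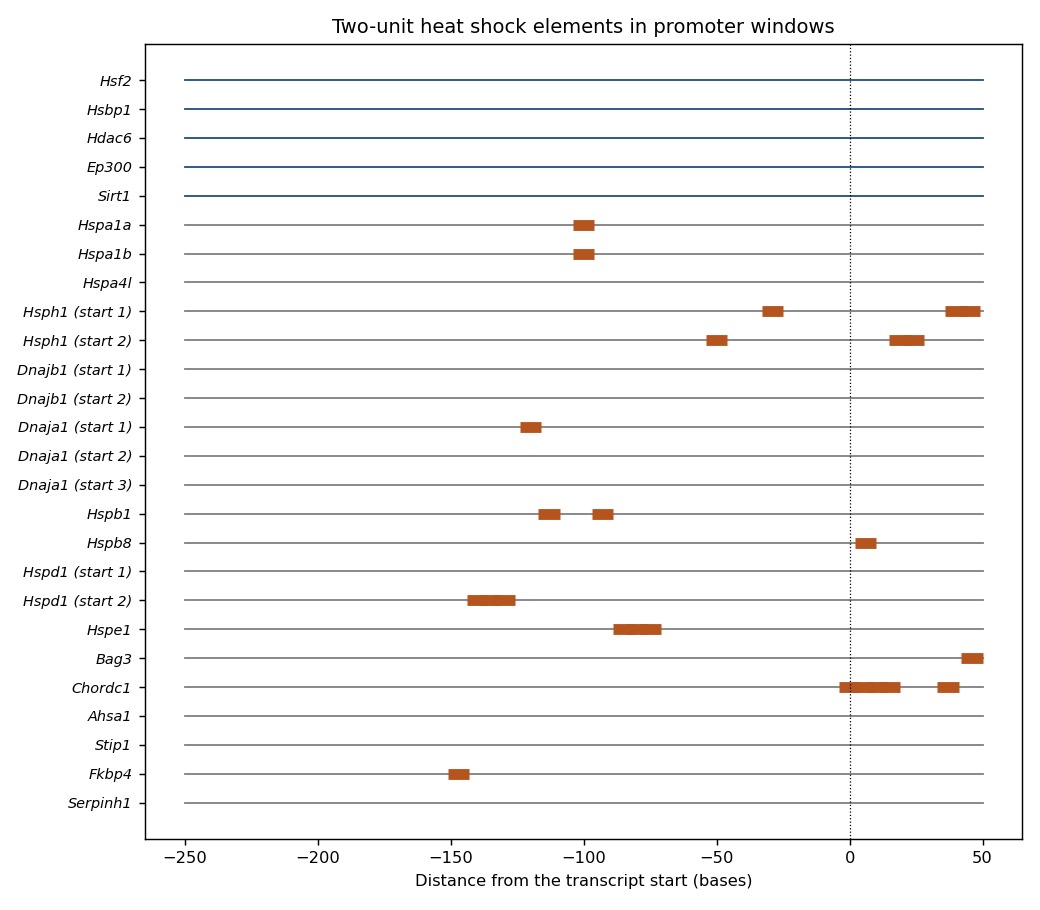
Positions of two-unit heat shock elements (thick marks) in promoter windows of 5 factors and regulators (blue lines) and 16 HSF1 target genes (grey lines), by distance in bases from the RefSeq transcript start (dotted line); genes with several starts have a line for each. The 5 blue lines carry no mark, and 11 target genes carry at least 1.

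Transcript levels differed widely between the genes and narrowly between groups. Per kilobase of exon, a scale on which genes can be compared, Hsbp1 was highest in untreated 4T1 with 1700.2 normalized counts per kilobase, followed by Hsf1 with 641 and Ep300 with 506. Hdac6, Sirt1 and Hsf2 had 278, 251 and 239.8, and Hsf4 had 8.10. Hsf1 was thus the most abundant factor transcript and Hsf4 was near the limit of detection. Normalized counts elsewhere in the text are per gene, scaled to the mean library size, and compare groups within a gene. Leaving out Hsf4, fitted differences of the other 6 genes between any pair of groups compared ran from 0.699-fold to 1.45-fold.

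**Figure D2:**
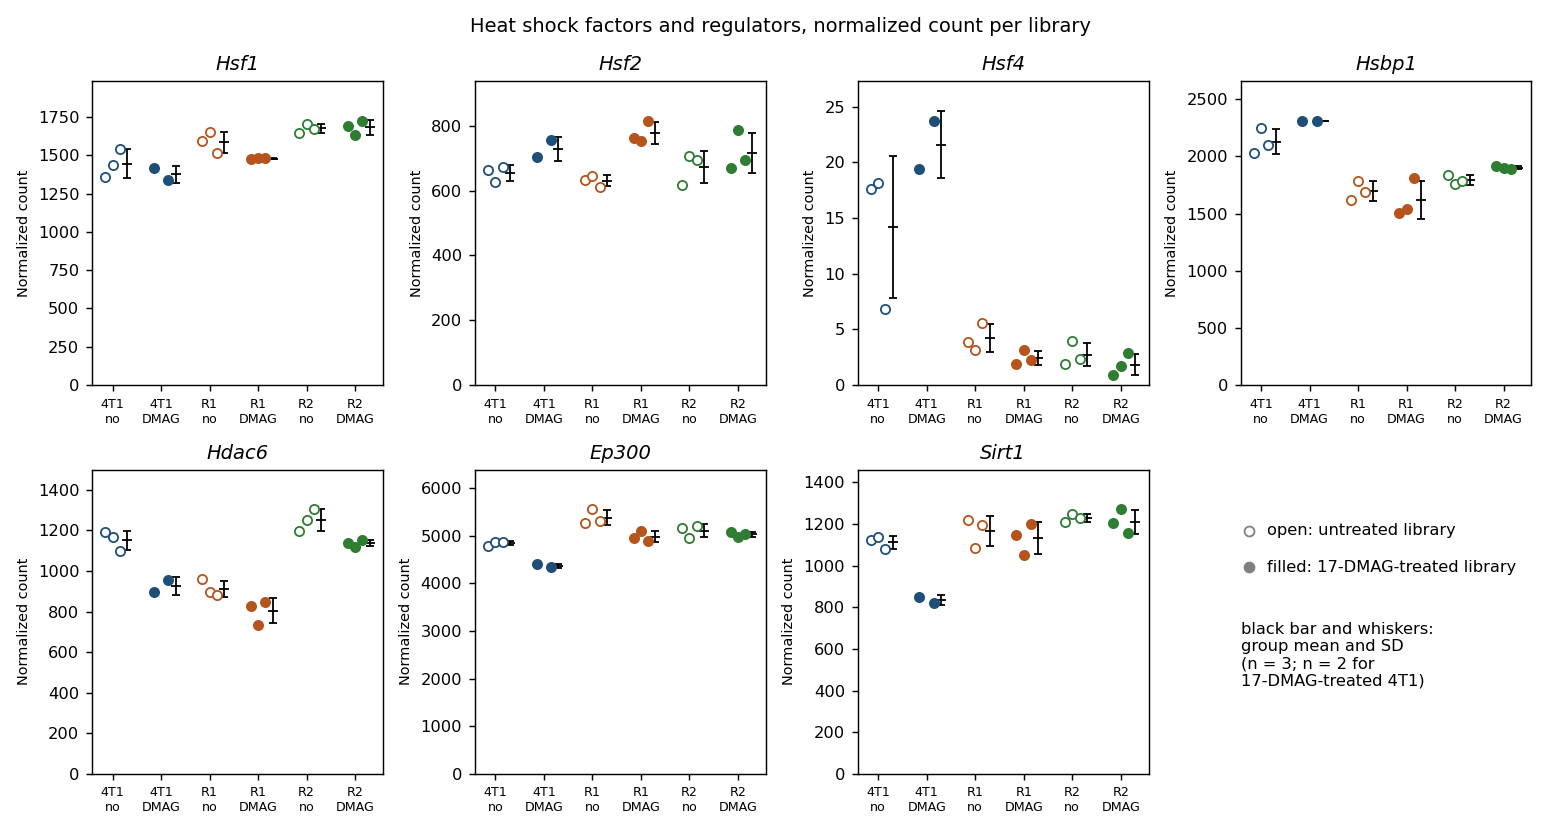
Normalized count per library for each of the 7 genes in the 6 groups (4T1, 4T1R1 as R1 and 4T1R2 as R2; no, untreated; DMAG, 17-DMAG), with each axis from 0; points are libraries and black bars the group mean and SD (n = 3, or n = 2 for 17-DMAG-treated 4T1). Sirt1 in treated 4T1 (819 and 851) lies below all other groups, and Hsf4 in 4T1 lies above 4T1R1 and 4T1R2.

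Before treatment, 4T1R1 and 4T1R2 had slightly more Hsf1 and Ep300 and less Hsbp1 transcript than 4T1, and 4T1R1 had less Hdac6 than either of the others. Hsf4 entered the test only through its counts in 4T1, so its values are given below and the counts of calls here and later are over the other 6 genes. At an adjusted p under 0.05 in edgeR's quasi-likelihood test, 2 of 6 were higher (Hsf1, Ep300) and 2 lower (Hsbp1, Hdac6) in 4T1R1 than in 4T1, where 25.2% of all genes tested were called higher and 27.5% lower. In 4T1R2, 3 were higher (Hsf1, Ep300, Sirt1) and 1 lower (Hsbp1), against 25.6% and 26.9% of all genes. Differences between untreated populations were thus common among all genes, and the 4 of 6 calls in each comparison are not read as particular to these genes. Between the 2 resistant populations 1 of 6 was called, Hdac6, higher in 4T1R2, against 19.7% of all genes higher and 19% lower. The other 5 differed between these populations by +0.08 (Hsf1), +0.09 (Hsf2), +0.08 (Hsbp1), -0.07 (Ep300) and +0.08 (Sirt1), none of which passed. The median log2 difference over the 6 genes was 0.0058 for 4T1R1 against 4T1, 0.10 for 4T1R2 against 4T1 and 0.08 for 4T1R2 against 4T1R1, and the medians over all genes tested were 0.0075, 0.0068 and -0.0079. The groups did not overlap for 3, 5 and 2 of the 6 genes, and for 56.5%, 57.2% and 46.1% of all genes tested.

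**Figure D3:**
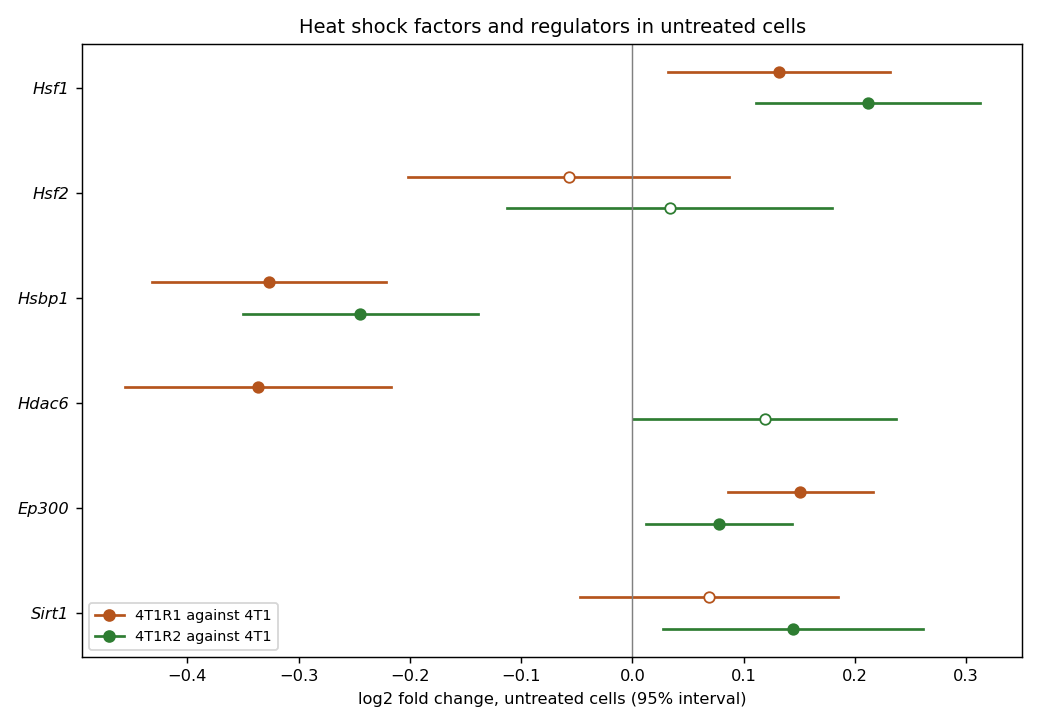
Log2 fold change of 6 genes (Hsf4 left out) in untreated 4T1R1 (orange) and 4T1R2 (green) against untreated 4T1 (points) with 95% intervals (lines) from edgeR's quasi-likelihood fit; filled points have an adjusted p under 0.05. Hsbp1 lies left of 0 in both populations (-0.33 and -0.24) and Hdac6 in 4T1R1 only (-0.34), and the other called genes lie between +0.08 and +0.21.

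After 17-DMAG, the 6 genes other than Hsf4 had log2 changes between -0.42 and +0.30 across the 3 populations. In 4T1, 3 of 6 fell (Hdac6, Ep300, Sirt1) and none rose, against 18.4% of all genes higher and 17.9% lower. In 4T1R1, Hsf2 rose and Hdac6 and Ep300 fell, against 13.9% and 14.3%. In 4T1R2 none of the 6 was called in either direction by edgeR's quasi-likelihood test or by DESeq2, 1 (Hdac6) had an unadjusted p under 0.05, and 6.18% of all genes were called higher and 4.35% lower. The median log2 change over the 6 genes was -0.11, -0.08 and -0.0073 in 4T1, 4T1R1 and 4T1R2, beside 0.00064, -0.0086 and -0.0019 over all genes. Untreated and treated groups did not overlap for 5, 4 and 2 of the 6 genes and for 56.5%, 39% and 26.5% of all genes. Scaled by total counts alone, which shifted the median of all genes by -0.11 in 4T1, Hsf1 was also called in 4T1 (0 higher and 4 lower), only Hsf2 was called in 4T1R1 (1 higher and 0 lower), and Hdac6 was called in 4T1R2 (0 higher and 1 lower). At that scaling 8.83% of all genes were called higher and 31.998% lower in 4T1, 17.4% and 9.74% in 4T1R1, and 2.70% and 8.48% in 4T1R2.

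**Figure D4:**
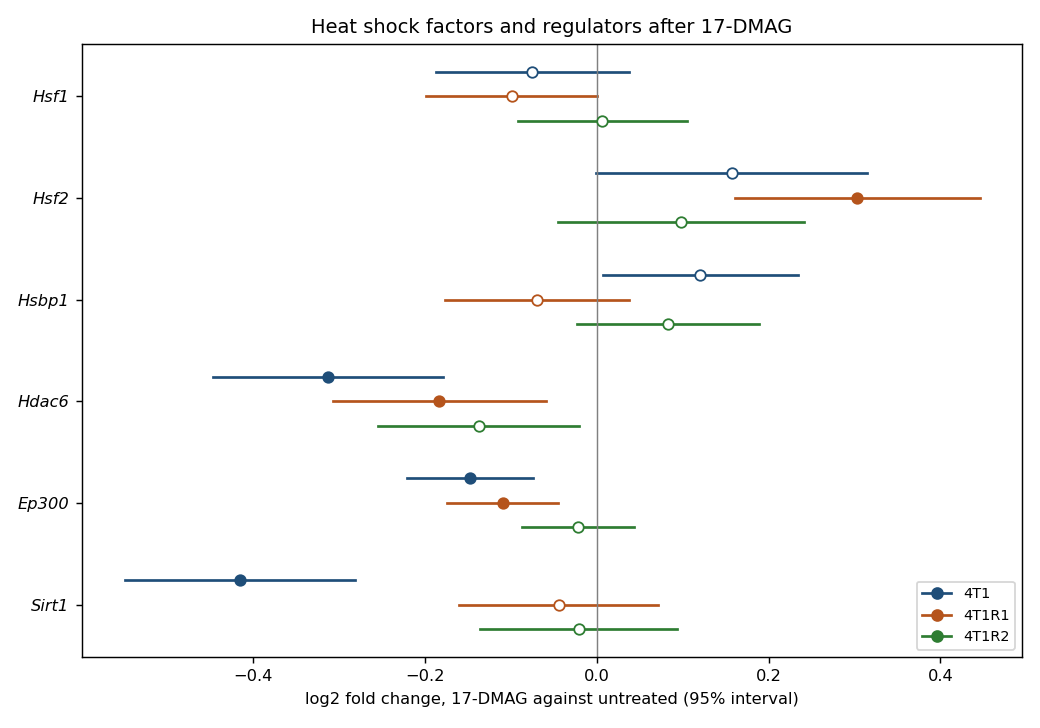
Log2 fold change after 17-DMAG of 6 genes in 4T1 (blue), 4T1R1 (orange) and 4T1R2 (green) (points) with 95% intervals (lines); filled points have an adjusted p under 0.05, and Hsf4 is left out because its libraries in 4T1R2 all had 3 counts or fewer. Sirt1 stands at -0.42 in 4T1 and near 0 in the other populations, and Hsf2 is highest in 4T1R1 at +0.30.

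Hsf1 (chr15:76477422-76501913, plus strand, ENSMUSG00000022556.11 in the GENCODE vM21 annotation of GRCm38) had normalized counts of 1357, 1439 and 1543 in untreated 4T1, 1515, 1592 and 1651 in untreated 4T1R1 and 1649, 1675 and 1706 in untreated 4T1R2. The 3 libraries of 4T1R2 lay above all those of 4T1, whereas 1 library of 4T1 exceeded the lowest of 4T1R1. After 17-DMAG the values were 1337 and 1415 in 4T1, 1473, 1481 and 1485 in 4T1R1 and 1633, 1690.1 and 1727 in 4T1R2. In order of the group means, treated and untreated 4T1R2 (1683 and 1676) and untreated 4T1R1 (1586) overlapped in turn. Untreated 4T1R1 did not overlap treated 4T1R1 (1479.8), which overlapped untreated 4T1 (1446), and that in turn treated 4T1 (1376). Untreated 4T1R2 exceeded untreated 4T1 by +0.21 (SE 0.0498, adjusted p = 0.000417) on the log2 scale, a 1.16-fold level. Untreated 4T1R1 exceeded 4T1 by +0.13 (SE 0.0494, adjusted p = 0.0235), a call that was lost without untreated 4T1R1 replicate 1 (adjusted p = 0.0538) or 2 (0.113) and without untreated 4T1 replicate 1 (0.178) or 2 (0.0551).

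Hsf1 transcript did not pass the test for a change after 17-DMAG in any population. The log2 change was -0.07 in 4T1 (95% interval -0.19 to 0.04, adjusted p = 0.320), -0.10 in 4T1R1 (-0.20 to 0.00, adjusted p = 0.135) and 0.0065 in 4T1R2 (-0.09 to 0.11, adjusted p = 0.957). None of these intervals reached past -0.20 or 0.11. Scaled by total counts alone the change in 4T1 was -0.19 (adjusted p = 0.00612). Among treated cells, Hsf1 was higher in 4T1R2 than in 4T1 by +0.29 (SE 0.0549, adjusted p = 1.73e-05), 1.23-fold, and the difference of 4T1R1 from 4T1, +0.11 (SE 0.0556, adjusted p = 0.104), did not pass, although the libraries did not overlap and it passed with all 18 libraries kept separate (+0.12, adjusted p = 0.0282) and with total counts alone (+0.28, adjusted p = 4.81e-05).

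Hsf2 (chr10:57486385-57513135, plus strand, ENSMUSG00000019878.8), which encodes the partner factor of HSF1, had 626, 664 and 674 normalized counts in untreated 4T1, 611, 633 and 645 in 4T1R1 and 616, 695 and 707 in 4T1R2. These groups overlapped, and no difference between untreated populations passed the test, with -0.06 for 4T1R1 and +0.03 for 4T1R2 against 4T1. After 17-DMAG it had 702 and 756 in 4T1, 753, 762 and 816 in 4T1R1 and 671, 693 and 786 in 4T1R2. Hsf2 rose in 4T1R1 by +0.30 (SE 0.0704, adjusted p = 0.000973), 1.23-fold, with all treated libraries above all untreated ones. The changes of +0.16 (SE 0.0781, adjusted p = 0.117) in 4T1 and +0.10 (SE 0.0708, adjusted p = 0.441) in 4T1R2 did not pass. The difference between the responses of 4T1R1 and 4T1 was +0.15 (95% interval -0.07 to 0.36, adjusted p = 0.385). Scaled by total counts alone it was +0.30 (adjusted p = 0.0359). Between treated populations Hsf2 stood at +0.09 (SE 0.0773, adjusted p = 0.347) in 4T1R1 and -0.03 (SE 0.0769, adjusted p = 0.805) in 4T1R2 against 4T1. The 6 group means, from 629.6 in untreated to 777 in treated 4T1R1, each overlapped the next in order.

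Hsf4 (chr8:105269801-105275845, plus strand, ENSMUSG00000033249.10) was barely expressed. Raw counts per library were 7 to 17 in untreated 4T1 and 18 and 29.5 in treated 4T1, where the latter is the average of replicates 1 and 2, and 6 or fewer in every library of 4T1R1 and 4T1R2. The gene passed the filter on low counts only through the 4T1 libraries, so no test is given for it. Normalized counts were 6.83, 17.6 and 18.2 in untreated 4T1, 3.13, 3.90 and 5.57 in untreated 4T1R1 and 1.92, 2.34 and 3.91 in untreated 4T1R2, without overlap between 4T1 and the others. The 1 low library of untreated 4T1 still exceeded the highest of 4T1R1. From summed counts, untreated 4T1 had 3.30 times the level of 4T1R1 (exact 95% interval 1.73 to 6.71, from 41 and 13 counts) and 5.33 times that of 4T1R2 (2.37 to 14.1, from 41 and 7 counts). These intervals cover at most counting error. They treat each count as independent, so they may be too narrow if both reads of a pair were counted. Among treated cells 4T1 had 9.05 times the level of 4T1R1 (4.02 to 23.5) and 11.997 times that of 4T1R2 (5.06 to 33.98), with the averaged libraries entered once. After 17-DMAG Hsf4 had 19.4 and 23.7 normalized counts in 4T1, 1.92, 2.21 and 3.17 in 4T1R1 and 0.927, 1.73 and 2.85 in 4T1R2, so the treated 4T1 libraries lay above the untreated ones. Untreated 4T1 had 0.640 times the treated level (0.415 to 1.00), and untreated 4T1R1 had 1.75 times the treated level (0.650 to 5.19), so no change was detectable at these counts.

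Hsbp1 (chr8:119344488-119348922, plus strand, ENSMUSG00000031839.7), the small inhibitor of HSF1 trimers, was lower in both resistant populations. Untreated 4T1 had 2032, 2102 and 2247 normalized counts, 4T1R1 1617, 1686 and 1785 and 4T1R2 1757, 1782 and 1840.5. All untreated 4T1 libraries lay above all untreated libraries of the other populations. The log2 difference from 4T1 was -0.33 (SE 0.0518, adjusted p = 1.06e-06) for 4T1R1, 1.25-fold lower, and -0.24 (SE 0.0522, adjusted p = 0.000121) for 4T1R2, 1.18-fold lower. Treated 4T1 had 2311 and 2312, treated 4T1R1 1503, 1539 and 1812 and treated 4T1R2 1889, 1896 and 1917. A single treated library of 4T1R1 stood above the other 2 and within the range of untreated 4T1R2. Treated 4T1R1 and 4T1R2 were lower than treated 4T1, at -0.52 (SE 0.0572, adjusted p = 3.79e-10) and -0.28 (SE 0.0562, adjusted p = 4.29e-05). No change after 17-DMAG passed, with +0.12 (SE 0.0563, adjusted p = 0.0920) in 4T1, -0.07 (SE 0.0530, adjusted p = 0.362) in 4T1R1 and +0.08 (SE 0.0522, adjusted p = 0.360) in 4T1R2, although in 4T1R1 the change was -0.16 (adjusted p = 0.0254) and its difference from 4T1 -0.28 (adjusted p = 0.00524) without treated replicate 3. With all libraries that difference was -0.19 (SE 0.0773, adjusted p = 0.0843). In order of group means, treated and untreated 4T1 and treated 4T1R2 stood apart from their neighbours, and the lower 3 groups overlapped.

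Hdac6 (chrX:7930120-7947889, minus strand, ENSMUSG00000031161.15) differed between the resistant populations, whose libraries belong to different series, so population and series cannot be told apart here. Untreated 4T1 had 1099, 1166 and 1191 normalized counts, 4T1R1 881, 896 and 959 and 4T1R2 1198, 1253 and 1304. All libraries of 4T1R1 lay below, and all of 4T1R2 above, those of 4T1. The log2 difference from 4T1 was -0.34 (SE 0.0592, adjusted p = 6.52e-06) in 4T1R1, 1.26-fold lower, and +0.12 (SE 0.0584, adjusted p = 0.0855) in 4T1R2, which did not pass, and 4T1R2 exceeded 4T1R1 by +0.46 (SE 0.0593, adjusted p = 4.46e-08), 1.37-fold. After 17-DMAG the counts were 894 and 956 in 4T1, 733, 827 and 849 in 4T1R1 and 1121, 1139 and 1152 in 4T1R2, each group below its untreated counterpart. Hdac6 fell in 4T1 by 0.31 on the log2 scale (SE 0.0661, adjusted p = 0.000181) and in 4T1R1 by 0.18 (SE 0.0613, adjusted p = 0.0216), the latter lost without untreated replicate 1 (adjusted p = 0.119) or treated replicate 2 (0.179) and with total counts alone (0.0802). The change in 4T1R2 was -0.14 (SE 0.0579, adjusted p = 0.134). No difference in its response passed the test, with +0.13 (SE 0.0901, adjusted p = 0.365) for 4T1R1 minus 4T1 and +0.18 (SE 0.0878, adjusted p = 0.177) for 4T1R2 minus 4T1. Treated 4T1R1 stood at -0.21 (SE 0.0677, adjusted p = 0.00939) and treated 4T1R2 at +0.29 (SE 0.0657, adjusted p = 0.000204) against treated 4T1, and the former was -0.03 (adjusted p = 0.741) with total counts alone and -0.15 (adjusted p = 0.0864) without treated 4T1R1 replicate 2.

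Ep300 (chr15:81585351-81652077, plus strand, ENSMUSG00000055024.12), an acetyltransferase and transcriptional co-activator, had 4791, 4859 and 4863 normalized counts in untreated 4T1, 5259, 5307 and 5552 in 4T1R1 and 4949, 5163 and 5198 in 4T1R2. Both resistant populations lay above 4T1 without overlap, by +0.15 (SE 0.0320, adjusted p = 0.000111) and +0.08 (SE 0.0323, adjusted p = 0.0414) on the log2 scale. The second of these is 1.06-fold and was lost without any 1 of 5 of the 6 libraries compared, with adjusted p from 0.0641 to 0.138, and without the filter on low counts (0.0894). After 17-DMAG the counts were 4339 and 4398 in 4T1, 4880.1, 4952 and 5105 in 4T1R1 and 4982, 5025 and 5081 in 4T1R2. Treated 4T1 was the lowest of the 6 groups, with no overlap with any other. Ep300 fell in 4T1 by 0.15 (SE 0.0362, adjusted p = 0.00108) and in 4T1R1 by 0.11 (SE 0.0320, adjusted p = 0.00819), the latter lost without untreated replicate 2 (adjusted p = 0.0614), without treated replicate 3 (0.0510) and with total counts alone (0.0849). In 4T1R2 it stood at -0.02 (SE 0.0321, adjusted p = 0.752). The response of 4T1R2 minus that of 4T1 was +0.13 (SE 0.0483, adjusted p = 0.0656), which did not pass here and passed in 8 of 27 alternatives, DESeq2 (adjusted p = 0.0323) and 18 separate libraries (0.0258) among them. For 4T1R1 minus 4T1 it was +0.04 (SE 0.0482, adjusted p = 0.663). Treated 4T1R1 and 4T1R2 exceeded treated 4T1 by +0.19 (SE 0.0362, adjusted p = 2.49e-05) and +0.20 (SE 0.0360, adjusted p = 6.74e-06). A microRNA gene on the same strand, Gm23880, shares 54 bases with Ep300 exons, 0.56% of their length.

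Sirt1 (chr10:63319005-63381704, minus strand, ENSMUSG00000020063.16), an NAD-dependent deacetylase, was the 1 of the 6 genes other than Hsf4 whose response to 17-DMAG passed the test for a difference between populations. Untreated 4T1 had 1079, 1122 and 1139 normalized counts, 4T1R1 1085, 1196 and 1219 and 4T1R2 1212, 1228 and 1251. These levels were close, with +0.07 (SE 0.0573, adjusted p = 0.325) for 4T1R1 against 4T1 and +0.14 (SE 0.0578, adjusted p = 0.0343) for 4T1R2 against 4T1, and the latter call was lost without untreated 4T1 replicate 1 (adjusted p = 0.0546) or 3 (0.125), without untreated 4T1R2 replicate 2 (0.0896) or 3 (0.0619) and without the filter on low counts (0.0528). After 17-DMAG there were 819 and 851 in 4T1, 1051, 1147 and 1199.5 in 4T1R1 and 1156, 1206 and 1271 in 4T1R2. Both treated 4T1 samples lay below every other library, and the other 5 groups overlapped in order. Sirt1 fell in 4T1 by 0.42 on the log2 scale (SE 0.0662, adjusted p = 2.15e-06), 1.33-fold lower. In 4T1R1 the change was -0.04 (95% interval -0.16 to 0.07, adjusted p = 0.628) and in 4T1R2 -0.02 (-0.14 to 0.09, adjusted p = 0.873). Among treated cells Sirt1 was higher than in 4T1 by +0.44 (SE 0.0662, adjusted p = 3.64e-07) in 4T1R1, 1.36-fold, and by +0.54 (SE 0.0654, adjusted p = 3.45e-09) in 4T1R2, 1.45-fold. An antisense gene, Gm16145, shares 65 bases with Sirt1 exons, 1.47% of their length, and whether counting used strand is not given in the sources used here.

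Differences in response, tested as the 17-DMAG change in a resistant population minus that in 4T1, were called for 1 of 6 genes in each population, Sirt1 both times. The difference was +0.37 (SE 0.0875, adjusted p = 0.00174) for 4T1R1 and +0.39 (SE 0.0872, adjusted p = 0.000857) for 4T1R2, both of which share the 4T1 libraries. Over the 27 alternatives it ranged from +0.32 to +0.52 and from +0.36 to +0.46, and passed in each. In these contrasts 9.16% and 9.62% of all genes were called higher and 9.08% and 8.16% lower. The median difference over the 6 genes was 0.08 and 0.10, beside -0.0031 and -0.0011 over all genes. Scaling by total counts moved the all-gene median by +0.15 and +0.07, and 4 (Hsf2, Hdac6, Ep300, Sirt1) and 2 (Ep300, Sirt1) of the 6 genes were then called, all higher. At that scaling 26.2% and 15.5% of all genes were called higher and 3.10% and 4.68% lower, so the direction of these calls is that of the whole table. For Hsf1 the differences were -0.02 (95% interval -0.17 to 0.13) and +0.08 (-0.07 to 0.23). For Hsbp1 in 4T1R2 the difference was -0.04 (-0.19 to 0.12) and for Hsf2 -0.06 (-0.27 to 0.15).

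Between treated populations, 2 of 6 genes were higher (Ep300, Sirt1) and 2 lower (Hsbp1, Hdac6) in 4T1R1 than in 4T1, against 25.1% of all genes higher and 27.6% lower. In 4T1R2, 4 were higher (Hsf1, Hdac6, Ep300, Sirt1) and 1 lower (Hsbp1), against 25.8% and 28%. The median over the 6 genes was 0.10 for 4T1R1 and 0.25 for 4T1R2, beside 0.0085 and -0.00084 over all genes. The groups did not overlap for 5 of the 6 genes in each of these comparisons and for 69% and 68.5% of all genes. Scaling by total counts moved the all-gene median for 4T1R1 by +0.18, and 4 of the 6 genes there (Hsf1, Hsf2, Ep300, Sirt1) were then higher and 1 (Hsbp1) lower, against 42.9% of all genes higher and 13.8% lower.

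The other genes of the HSF1 pathway were taken from a list of 41 kinases and phosphatases, acetylation enzymes, ubiquitin and SUMO enzymes and cofactors, of which 38 could be tested, since the factor relatives Hsf3, Hsf2bp and Hsbp1l1 were below the filter. In untreated cells 8 were higher and 17 lower in 4T1R1 than in 4T1, and 10 were higher and 13 lower in 4T1R2, with medians of -0.07 and -0.03. The shares over all genes were 25.2% higher and 27.5% lower, and 25.6% and 26.9%. With total counts alone the first split was 12 and 14, against 27.4% and 24.4% of all genes. Among those named by rule, Prkdc, the DNA-dependent protein kinase that can phosphorylate HSF1, was higher in 4T1R1 and 4T1R2 by +0.40 (SE 0.0444) and +0.40 (SE 0.0448). Prkaca, a catalytic subunit of protein kinase A, was lower, at -0.50 (SE 0.0421) and -0.47 (SE 0.0425). Plk1, a mitotic kinase that phosphorylates HSF1, was lower, at -0.42 and -0.33. In 4T1R1 the deacetylase Hdac1 (+0.30) and the ERK kinase Mapk3 (+0.39) were higher and the single-strand binding protein Ssbp1 (-0.36) was lower. In 4T1R2 Sympk (+0.40), a polyadenylation scaffold, and Rpa1 (+0.25), which helps HSF1 reach nucleosomal DNA, were higher and the acetyltransferase Kat2b (-0.33) was lower. Between untreated resistant populations 13 were higher and 4 lower in 4T1R2 (19.7% and 19% of all genes), led by Ssbp1 (+0.29), the stress kinase Mapk8 (+0.29) and Sumo2 (+0.25), with Kat2b (-0.43), Mapk3 (-0.27) and Mtor (-0.12) lower.

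After 17-DMAG, 4 of the 38 rose and 9 fell in 4T1, 3 rose and 6 fell in 4T1R1, and 1 rose and none fell in 4T1R2, with medians of -0.03, -0.0089 and 0.0065. Over all genes 18.4% rose and 17.9% fell in 4T1, 13.9% and 14.3% in 4T1R1, and 6.18% and 4.35% in 4T1R2. With total counts alone these splits were 3 and 21, 8 and 4, and 0 and 4. Shares over all genes were then 8.83% higher and 31.998% lower in 4T1, 17.4% and 9.74% in 4T1R1, and 2.70% and 8.48% in 4T1R2. The balance of direction in this list thus depends on the scaling, as it does over all genes. Atf1, a CREB-family factor that recruits co-activators to HSF1, rose in all 3 populations by +0.26 (SE 0.0511, adjusted p = 7.57e-05), +0.20 (SE 0.0479, adjusted p = 0.00124) and +0.19 (SE 0.0476, adjusted p = 0.00741). Vcp, a ubiquitin-handling ATPase that works with HDAC6, rose in 4T1 by +0.25 (SE 0.0290), and Ccar2, an inhibitor of SIRT1, by +0.25 (SE 0.0477). In 4T1 the genes Kat2b, Prkaa1 (an AMP-activated kinase subunit) and Mapk3 fell by 0.32, 0.23 and 0.20. In 4T1R1 the casein kinase subunit Csnk2a1 (+0.14) and Prkdc (+0.12) rose, and Mapk3, Plk1 and the chromatin remodeller Smarca4 fell by 0.28, 0.17 and 0.17.

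In this list the difference in response from 4T1 was higher for 2 and lower for 2 genes in 4T1R1, and higher for 4 and lower for 2 in 4T1R2 (19 and 0, and 9 and 1, with total counts alone), with medians of 0.01 and 0.05. Over all genes 9.16% were higher and 9.08% lower in 4T1R1, and 9.62% and 8.16% in 4T1R2. With total counts alone these shares were 26.2% and 3.10% in 4T1R1, and 15.5% and 4.68% in 4T1R2. Ccar2 and Vcp were the lower genes in both populations, at -0.28 (SE 0.0645, adjusted p = 0.00118) and -0.20 (SE 0.0392, adjusted p = 0.000202) in 4T1R1 and -0.24 (SE 0.0643, adjusted p = 0.00699) and -0.20 (SE 0.0392, adjusted p = 0.000159) in 4T1R2. Prkaa1 was higher in both, by +0.30 (SE 0.0629) and +0.31 (SE 0.0632), Prkdc in 4T1R1 by +0.26, and Kat2b and Prkaca in 4T1R2 by +0.32 and +0.18. The SIRT1 inhibitor Ccar2 thus rose in 4T1, where Sirt1 fell, and had changes of -0.04 and +0.01 in 4T1R1 and 4T1R2. Among treated cells 9 of 38 were higher and 16 lower in 4T1R1 than in 4T1, and 9 were higher and 8 lower in 4T1R2 (19 and 5, and 16 and 5, with total counts alone), with medians of -0.05 and -0.0093, beside 25.1% and 27.6%, and 25.8% and 28%, of all genes. Prkdc was higher in both (+0.66 and +0.47) and Vcp and Prkaca were lower in both (-0.47 and -0.51, and -0.46 and -0.28). Hdac1 (+0.40) and Prkaa1 (+0.39) were higher and Plk1 (-0.54) lower in 4T1R1. Sympk (+0.37) and Rpa1 (+0.37) were higher and Atf1 (-0.29) lower in 4T1R2. With total counts alone, 42.9% of all genes were higher and 13.8% lower in treated 4T1R1, and 33.96% and 20.5% in treated 4T1R2.

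Beside these levels stand the transcripts that HSF1 activates. The target list held 20 heat shock genes, of which 19 could be tested, and Hspb1 was below the filter. Its level per library, the median log2 normalized count of the 19 relative to untreated 4T1, was 1.56 and 1.57 in treated 4T1, 0.82, 0.89 and 0.89 in treated 4T1R1, and 0.79, 0.80 and 0.83 in treated 4T1R2. It was -0.0104 ± 0.0118 in untreated 4T1, -0.118 ± 0.00686 in untreated 4T1R1 and 0.0433 ± 0.0658 in untreated 4T1R2 (SD, n = 3). Thus the targets were highest in treated 4T1, without overlap, and the 2 resistant populations overlapped each other after treatment. In the same libraries Hsf1 transcript was 1337 and 1415 in treated 4T1, 1473, 1481 and 1485 in treated 4T1R1 and 1633, 1690.1 and 1727 in treated 4T1R2. By edgeR's quasi-likelihood test the Hsf1 difference from treated 4T1 passed for 4T1R2 (adjusted p = 1.73e-05). It did not pass for 4T1R1 (adjusted p = 0.104). Of the genes encoding proteins that restrain HSF1, Hsbp1 was highest in treated 4T1 (2312 ± 0.637, n = 2), against 1618 ± 169 and 1901 ± 14.7 in treated 4T1R1 and 4T1R2 (n = 3). Sirt1, whose product prolongs DNA binding by HSF1, and Ep300 were lowest in treated 4T1. Hsf4, near the limit of detection, was highest in treated 4T1 (mean 21.6, against 2.43 in treated 4T1R1 and 1.84 in treated 4T1R2). Hdac6 in treated 4T1 (mean 925) lay between treated 4T1R1 (803) and 4T1R2 (1137). Hsf2 in treated 4T1 (mean 729) lay between treated 4T1R2 (717) and 4T1R1 (777). Whether these transcript levels bear on the size of the target response was not tested, and HSF1 protein, its modification and its binding to DNA are not analysed here.

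All 19 targets rose in 4T1, and 17 rose and none fell in each of 4T1R1 and 4T1R2, with median log2 changes of 1.56, 0.82 and 0.63. Over all genes 18.4% rose and 17.9% fell in 4T1, 13.9% and 14.3% in 4T1R1, and 6.18% and 4.35% in 4T1R2. Hspa1b, Hsph1 (an HSP110), Hspa8 (the constitutive HSC70), Dnajb1 (an HSP40) and Hsp90aa1 (the inducible HSP90) rose in 4T1 by +5.11, +2.72, +2.32, +2.19 and +2.00. In 4T1R1 the same 5 rose by +3.23, +1.75, +1.95, +1.34 and +1.40, and Dnaja1, another HSP40, rose by +1.86. In 4T1R2 they rose by +2.29, +1.18, +1.51, +1.01 and +0.88. Differences in response were called lower for 18 of 19 targets in 4T1R1 and 17 of 19 in 4T1R2, with medians of -0.45 and -0.81, led by Hspa1b (-1.88 and -2.81), Hsph1 (-0.97 and -1.54) and the co-chaperone Bag3 (-1.01 and -1.21). For Hspa8, Dnajb1 and Hsp90aa1 these differences were -0.37, -0.85 and -0.60 in 4T1R1 and -0.81, -1.18 and -1.12 in 4T1R2. The corresponding differences of the 6 factor and regulator genes other than Hsf4 lay between -0.19 and +0.39. In these contrasts 9.16% of all genes were called higher and 9.08% lower in 4T1R1, and 9.62% and 8.16% in 4T1R2.

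**Figure D5:**
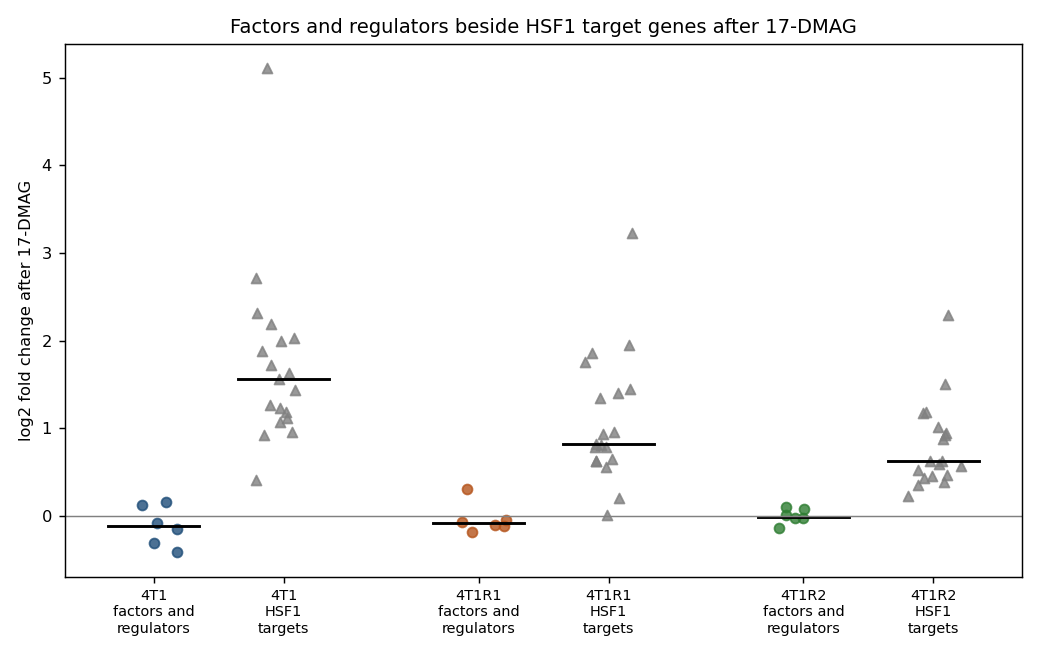
Log2 fold change after 17-DMAG of 6 factor and regulator genes (circles, Hsf4 left out) and 19 HSF1 target genes (grey triangles) in each population, with bars at the medians. Target medians stand at 1.56, 0.82 and 0.63 in 4T1, 4T1R1 and 4T1R2, and the factors and regulators lie between -0.42 and +0.30.

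Without treatment, 3 targets were higher and 11 lower in 4T1R1 than in 4T1, 9 were higher and 6 lower in 4T1R2, and 13 were higher and 1 lower in 4T1R2 than in 4T1R1, with medians of -0.13, 0.0084 and 0.13. The shares over all genes were 25.2% higher and 27.5% lower, 25.6% and 26.9%, and 19.7% and 19%, so calls in both directions were common in the whole table. In 4T1R1 the small heat shock protein Cryab (+0.42), Bag3 (+0.30) and Hspa4l (+0.22) were higher and Hspe1 (-0.58), Hspd1 (-0.41) and Hspa8 (-0.32) were lower than in 4T1. In 4T1R2 Hspa4l (+0.80), Hspa1b (+0.46) and Bag3 (+0.43) were higher and Hspb8 (-0.39), Hspe1 (-0.38) and Hspd1 (-0.30) were lower. Hspa4l (+0.58), Hspa1b (+0.54) and Hsp90aa1 (+0.50) were higher and Cryab (-0.41) lower in 4T1R2 than in 4T1R1. Hsf1 transcript in the same untreated comparisons with 4T1 stood at +0.13 and +0.21. After treatment no target was higher and 18 and 17 of 19 were lower in 4T1R1 and 4T1R2 than in 4T1, with medians of -0.69 and -0.78, led in 4T1R1 by Hspa1b (-1.96), Hsph1 (-1.24) and Hspe1 (-1.03) and in 4T1R2 by Hspa1b (-2.36), Hspb8 (-1.39) and Hsph1 (-1.38). Over all genes 25.1% were higher and 27.6% lower in treated 4T1R1, and 25.8% and 28% in treated 4T1R2.

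Across the 17 libraries, which fall into 6 groups and share populations and scaling, log2 levels of Ep300 and Sirt1 correlated with r = 0.72, Hsf1 with Ep300 at 0.67 and with Sirt1 at 0.66, and Hsbp1 with Ep300 at -0.70. Hsf4 ran opposite to Hsf1 (-0.76) and Sirt1 (-0.69) and along with Hsbp1 (0.67), and Hsf2 had no correlation above 0.42 in size with another member. Of the 10329 other genes that averaged 100 or more normalized counts (10330 for Hsf4), the patterns most like that of Hsf1 belonged to Palm (r = 0.951), Rpa1 (0.950) and Tpi1 (0.930). Those most like Sirt1 belonged to Lysmd3 (0.967), Tbl1xr1 (0.948) and Wasf1 (0.945), and those most like Hsbp1 included Wbscr22 (0.960) and Cops7a (0.950). Hdac6 was most like Olfm1 (0.948), Ampd2 (0.944) and Idh1 (0.943), and Ep300 most like Itga5 (0.957), Thra (0.955) and Wnt10a (0.951). For Hsf4, set against genes of 100 or more counts as well, they were Kmt2c (0.934), Thbs1 (0.927) and Sh3pxd2a (0.919). The low counts of Hsf4 limit these values too. For Hsf2, which had the weakest likeness, the genes were Prpf39 (0.833), Nufip2 (0.826) and Clk4 (0.826).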

How the data were processed

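RNA-seq of rRNA-depleted, strand-marked (dUTP) libraries was measured in 18 samples. Per the labels and the study's methods, the authors demultiplexed reads with bcl2fastq 2.20, aligned them to the mouse genome (mm10) with STAR and made the deposited table of raw gene counts with featureCounts (Subread 1.6.2). The STAR version, the strand setting and the handling of reads that map to several places are not given in the sources used here. Of counts from 1 to 12, 65.6% to 70.8% were even, as when both reads of a pair are counted, so counting intervals may be too narrow.

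Counts were fitted in edgeR 4.0.16 (R 4.3.3): filterByExpr, TMM scaling, a mean for each of 6 groups, the quasi-likelihood test, Benjamini-Hochberg adjustment over 13507 genes and a threshold of 0.05. The standard error is the log2 fold change divided by the square root of F, and intervals are 95%. Replicates 1 and 2 of treated 4T1 were averaged (rounded only for DESeq2), which left 17 libraries. To normalize, a library's counts were divided by its size after TMM scaling and multiplied by the mean of these sizes. The 6 genes other than Hsf4 are given in all comparisons by value or range, and Hsf4, which entered the fit through its 4T1 counts alone, by its levels and a ratio of summed counts with an exact interval. Of the other pathway genes and the targets, up to 3 in each direction with the largest fitted change were named, among those called with 100 normalized counts or more and no overlap between groups, which was not asked of differences in response. Hspa1b, Hspa8, Hsp90aa1, Hsph1 and Dnajb1 were always given, and Chordc1 and Hspe1 were picked for their promoters with their values in view. For each of the 7, genes with the most similar pattern were named by Pearson's r of log2 normalized counts, and 1 of these is not reported here. The genes and lists were chosen with earlier results of these data known.

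Alternatives were RLE scaling, total counts, 2 other filters on low counts, DESeq2 1.42.0, a fit without Rn45s, only the groups compared, 18 separate libraries, a replicate block, and the omission of every library singly. The script was tested on simulated data.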

Additional observations from a re-analysis of the deposited data

Results flagged for a closer look

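Sirt1 was the 1 of the 6 genes other than Hsf4 whose 17-DMAG response passed the test for a difference between populations. The log2 change in 4T1 was -0.42, against -0.04 in 4T1R1 and -0.02 in 4T1R2, and the response minus that of 4T1 was +0.371 (SE 0.0875, adjusted p = 0.00174) in 4T1R1 and +0.394 (SE 0.0872, adjusted p = 0.000857) in 4T1R2. Both differences rest on the same 4T1 libraries, 3 untreated and 2 treated, and each passed with any 1 library left out. All 3 libraries of treated 4T1R1 and all 3 of treated 4T1R2 lay above both treated 4T1 samples.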

How the results depend on the processing

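Over 27 alternatives, the 70 fitted differences of the 7 genes were recomputed 1875 times. Of these, 1813 kept their direction and their side of the threshold, 25 lost and 23 gained a call, 14 changed sign without being called either way, and none changed sign with a call. Counts over the 7 genes here include Hsf4, which entered the fit through its 4T1 libraries alone. With total counts alone, the calls among the 7 genes became 1 in the 4T1R1 response, 1 in the 4T1R2 response, and 4 and 2 in the 4T1R1 and 4T1R2 differences from 4T1, where Hsf2, Hdac6 and Ep300 gained calls. Hsf4 was not among these calls. Among the other pathway genes they became 24 and 4 in the 4T1 and 4T1R2 responses. In the 4T1R1 and 4T1R2 differences they became 19 and 10. Shares over all genes were then 8.83% higher and 31.998% lower in the 4T1 response. They were 17.4% and 9.74% in the 4T1R1 response and 2.70% and 8.48% in the 4T1R2 response. For the differences from 4T1 they were 26.2% and 3.10% in 4T1R1, and 15.5% and 4.68% in 4T1R2. Without a filter on low counts, 3 of the 7, Hsf4 among them, were called between untreated 4T1R2 and 4T1. For the 4T1R2 difference, 2 of the 7 (Sirt1 and Ep300) were called with at least 10 counts in every library, DESeq2, only the groups compared, and 18 separate libraries.

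With each library left out, the calls among the 7 genes ranged from 3 to 5 for untreated 4T1R1 and from 3 to 5 for untreated 4T1R2 against 4T1, and from 1 to 2 for either difference in response. With all libraries, 5 of the 7 were called in each of these untreated comparisons, or 4 of 6 with Hsf4 left out. The Hsf4 call is not read as a result, because the gene entered the fit through its 4T1 counts alone. Over all genes 25.2% were then called higher and 27.5% lower in 4T1R1, and 25.6% and 26.9% in 4T1R2. Pathway calls in the 4T1R2 response ranged from 0 to 1. The libraries that moved these counts by over 1.5 times were untreated 4T1 replicates 1 and 2 for 4T1R1 (3 calls each), untreated 4T1 replicates 1 and 3 and untreated 4T1R2 replicate 3 for 4T1R2 (3 calls each), treated 4T1R1 replicate 3 and untreated 4T1 replicate 2 for the 4T1R1 difference (2 calls each), untreated 4T1R1 replicate 2 and treated 4T1 replicate 2 for the 4T1R2 difference (2 calls each), and untreated 4T1R2 replicate 3 for the pathway genes. The cause was not tested.

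Replicate numbers showed little sign of pairing where this was checked. Untreated libraries were set against treated ones of the same number in each population, and untreated 4T1 against untreated 4T1R1 and 4T1R2. Of these 15 pairs of libraries, 1 had a correlation of deviations over 0.1 (range -0.0894 to 0.173). Other pairs of groups were not checked. With the number as a block, in all 18 libraries, 2 of the 7 genes were called in the 4T1R2 difference.

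Hsf4 is limited by its depth, with 6 counts or fewer in every library of 4T1R1 and 4T1R2.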
